A study of Homo sapiens with 9 samples.

Results

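Genes with lower signal in T47D-PA6 alone are described here: 91 genes and transcripts whose microarray signal was at least 1 log2 unit lower in the line T47D-PA6 than in both T47D-VC1 and T47D-PA5, while the other two lines lay within 0.5 log2 units of each other. T47D is a luminal breast cancer cell line. Each of the 3 lines carried the pTARGET vector and survived selection with G418: T47D-VC1 held the empty vector (genotype "control"), T47D-PA5 expressed incomplete PTH-AS, and T47D-PA6 expressed full-length PTH-AS, a long noncoding RNA. T47D-PA5 served as a further control for effects of the gene transfer. Each construct is represented by a single line. The PTH-AS lines were picked from among several high expressers, so the construct and the selected line cannot be told apart.

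Each line was measured on 3 single-colour arrays of total RNA, which limits the precision of every value. The labels do not state whether replicates came from separate cultures, so the spread between arrays may hold less than the spread between cultures. Replicate 1 of every line was read in the first scan run and replicates 2 and 3 in the later run. In the later run both T47D-PA6 arrays were on slide 3. T47D-VC1 and T47D-PA5 had replicate 2 on slide 2 and replicate 3 on slide 3, so that run was not balanced by slide. No probe on the arrays carried the name PTH-AS (0 of 58201), so its own level is not given.

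Membership rested on the mean log2 of the deposited quantile-normalized intensity of each line. Of 43317 gene names on the array, 18645 were eligible, because the probe with their highest mean was well above background on all T47D-VC1 and T47D-PA5 arrays. Of these, 139 passed the 3 limits on the differences. A further rule set aside 48 of the 139 by name or position: 21 on the distal long arm of chromosome 1, 11 on a stretch of the long arm of chromosome 9, 6 whose name ends in -AS1, 3 potassium channel genes, 3 keratin genes, 2 with names in LINC and 2 single genes. The remaining 91 are the members. Because the differences between lines chose them, those differences are given as a description and with no test.

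The number of members depended on the processing. With another background correction (normexp, offset 50), 15 of the 91 passed the same limits and no further gene did. When a probe had to be well above background on all 9 arrays, 57 passed. Limits of -0.8 gave 193 genes and limits of -1.2 gave 52. Leaving out replicate 1 of T47D-PA6 gave 142 genes, of which 83 were among the 91.

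A set chosen by its pattern across cell lines is not a pathway, and its genes are known from unrelated roles. Luminal breast cells are known as secretory epithelium that depends on estrogen and progesterone receptors and on the factors GATA3 and FOXA1. They release proteins and lipids and carry mucin-type sugars and transporters on their surface, and several genes described below belong to these functions.

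The arrays carried the markers of luminal breast epithelium: 12 of 12 were called well above background throughout, and KRT19 had the highest signal. Among them, the progesterone receptor gene PGR had a T47D-PA6 minus T47D-VC1 difference of -1.07 and the estrogen-induced gene TFF1 one of 1.62, while the other 10 lay between -0.26 and 0.23. Of the 4 basal markers, 0 met this on all 9 arrays, as did 0 of 4 adipocyte markers, 2 of 8 fibroblast markers (COL1A1 with the highest signal) and 2 of 5 endothelial markers. The summed fibroblast intensity was 521, 446 and 471 in T47D-VC1, 895, 515 and 544 in T47D-PA5, and 381, 305 and 343 in T47D-PA6. It was lowest in T47D-PA6, with 5 of the 8 genes above background on no array, and its part in the members' differences was not tested.

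Across the 91 members, the T47D-PA6 minus T47D-VC1 difference had a median of -1.41 and ran from -3.20 to -1.01, against a median of -0.04 over the 18645 eligible genes. The T47D-PA6 minus T47D-PA5 difference had a median of -1.42 and ran from -3.58 to the limit of -1, against -0.01 over eligible genes. Both differences use the same T47D-PA6 arrays. Among the 57 members whose signal passed detection on all 3 T47D-PA6 arrays, both differences were -2 or lower for 4 and -1.5 or lower for 11. For the other members the sizes are uncertain. T47D-PA5 lay above T47D-VC1 for 44 members, and for 59 the difference between these lines was within 0.25.

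**Figure D1:**
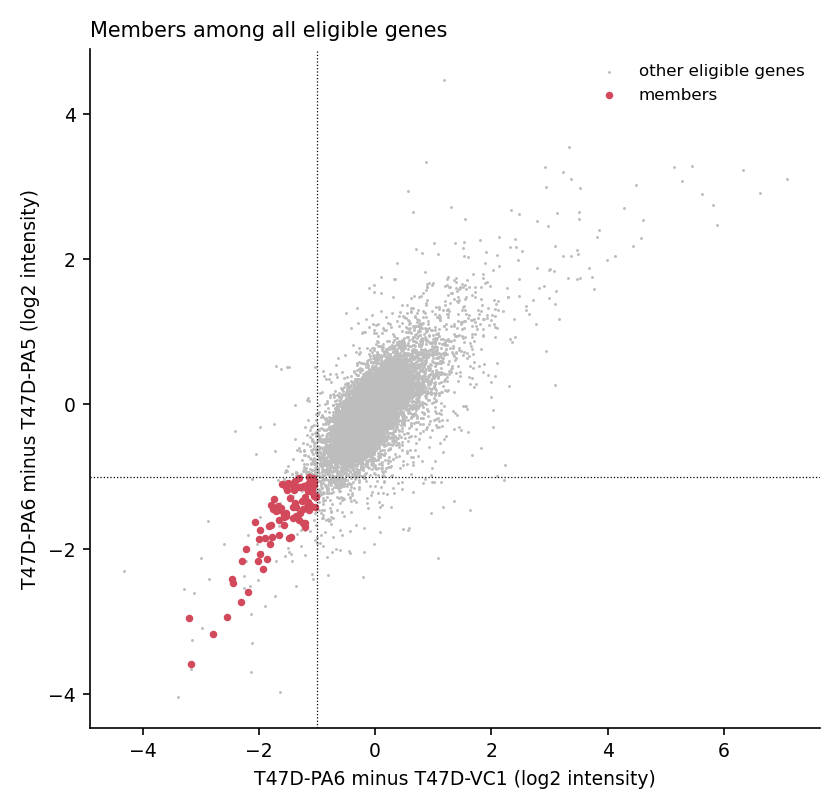
Difference in mean log2 intensity of T47D-PA6 from T47D-VC1 (horizontal) and from T47D-PA5 (vertical) for each of 18645 eligible genes, with the 91 members in red and dotted lines at -1. Grey points beyond both lines are genes set aside by name or position, or genes whose T47D-PA5 minus T47D-VC1 difference was outside 0.5.

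In 78 of the 91 members, all 3 T47D-PA6 arrays lay below all 6 arrays of the other two lines, which was so for 10.6% of eligible genes. The choice of members favours such genes, and nothing is read from the count. In a limma fit of all 20098 genes tested, 68 members passed as lower than T47D-VC1 at an adjusted p of 0.05 (5.39% of all genes did) and 70 as lower than T47D-PA5 (6.12% of all genes). Nothing is read from these counts either, since they come from the contrasts that chose the members. Between T47D-PA5 and T47D-VC1, whose likeness was also part of the choice, 0 members passed, against 1.67% of all genes.

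The members were dim. Their median T47D-VC1 intensity was 74.2, against 464.0 over eligible genes, and 79 of 91 lay at or below that eligible median. The spread between T47D-PA6 replicates was wider than over all eligible genes, with a median SD of 0.40 log2 units against 0.17. In T47D-VC1 the medians were 0.25 and 0.17, and in T47D-PA5 0.22 and 0.14. Genes of similar intensity were not compared, so nothing about the members is read from these SDs. On the T47D-PA6 arrays themselves, 57 members were well above background on all 3 arrays, 15 on 2, 11 on 1 and 8 on 0. For those 8, a fold is given only as a lower bound, with each T47D-PA6 value raised to at least the lowest intensity called well above background on its array. For members with 1 or 2 such arrays, differences are printed as deposited and their size is uncertain.

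**Figure D2:**
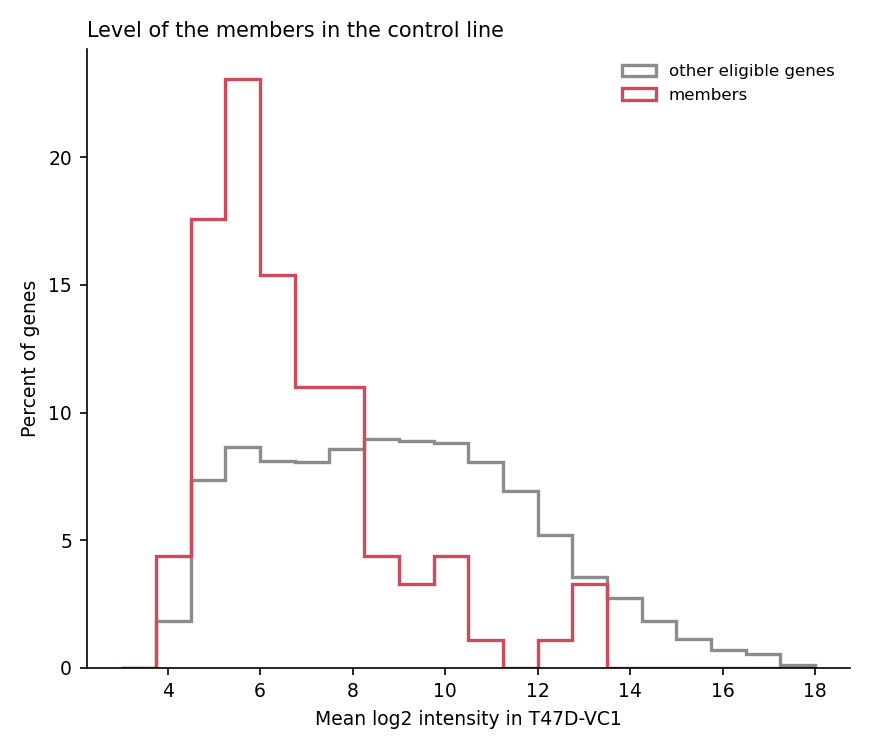
Distribution of the mean log2 intensity in T47D-VC1 for the 91 members (red) and the other eligible genes (grey), as percent of genes per bin of equal width. The members gather at the left, with a median intensity of 74.2, and a few sit far to the right, up to 10420.

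Of the 91, 55 have gene names on the array and 36 are labelled there by a transcript, accession or locus. The RefSeq gene table classed 53 as protein coding genes, 3 as long noncoding RNAs and 2 as transcribed pseudogenes, and held no match for 33.

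OXCT1 is the mitochondrial enzyme that moves coenzyme A onto acetoacetate and so lets cells burn ketone bodies. Its intensities were 106, 180.1 and 156 on the T47D-VC1 arrays, 95.6, 132 and 139.6 on the T47D-PA5 arrays, and 17.7, 17.0 and 12.8 on the T47D-PA6 arrays. Every T47D-PA6 array was low, in both scan runs. The mean differences were -3.20 and -2.94. Because 1 of 3 T47D-PA6 arrays was well above background, the size of these differences is uncertain.

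FSIP1, a protein of the sperm tail's fibrous sheath that is also found in breast cancer cells, read 564, 674 and 601 in T47D-VC1, 885, 746 and 761 in T47D-PA5, and 135, 74.8 and 68.1 in T47D-PA6. The groups were far apart and T47D-PA6 replicate 1 was the highest of its line. The differences were -2.79 and -3.17. The transcript lnc-FSIP1-1, whose probe lies 15.1 kb from the midpoint of the FSIP1 probe on chromosome 15, read 169, 189 and 173 in T47D-VC1, 298, 207 and 212 in T47D-PA5, and 48.1, 12.1 and 13.1 in T47D-PA6. There too replicate 1 was the highest T47D-PA6 array, and the differences were -3.17 and -3.58. Another FSIP1 probe nearer the gene's start gave smaller differences, -0.85 and -0.53.

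The genes around this pair are placed by their probes. THBS1, which encodes the secreted adhesion protein thrombospondin 1, has its probe between the 2 probes and had differences of -1.35 and -0.95. On the far side of FSIP1, lnc-EIF2AK4-4 had -1.67 and -1.04 but missed membership because T47D-PA5 also lay below T47D-VC1, by a difference of -0.63. On the side of lnc-FSIP1-1, the nearest eligible transcript, ENST00000558209, had 0.05 and 0.08. Next to it RASGRP1, a Ras exchange factor, had -1.09 and -0.49, FAM98B had 0.35 and -0.10, and SPRED1 had 0.60 and 0.38. Beyond lnc-EIF2AK4-4, the kinase gene EIF2AK4 had -0.51 and -0.47, and SRP14 had 0.00 and 0.04. The genes around the pair thus had differences of both signs against T47D-VC1.

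FSIP1 is 1 of 8 members that lie in 4 neighbouring pairs, and the 250 bases before the start of FSIP1 are shown, with those of 3 other members whose promoters held searched motifs: CEACAM6, CACNB4 and MEGF9. The sequences are from RefSeq (GRCh38.p14), given 5′ to 3′ on the gene's strand, and capitals mark the letters of a motif. FSIP1 is on the minus strand at chr15:39782842-39783091, CEACAM6 on the plus strand at chr19:41755280-41755529, CACNB4 on the minus strand at chr2:152099168-152099417 and MEGF9 on the minus strand at chr9:120714471-120714720.
FSIP1: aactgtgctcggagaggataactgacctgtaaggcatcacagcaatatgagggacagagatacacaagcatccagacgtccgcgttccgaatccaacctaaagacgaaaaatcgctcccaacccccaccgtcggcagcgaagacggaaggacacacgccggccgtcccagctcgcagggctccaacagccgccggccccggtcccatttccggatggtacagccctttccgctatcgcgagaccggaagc
CEACAM6: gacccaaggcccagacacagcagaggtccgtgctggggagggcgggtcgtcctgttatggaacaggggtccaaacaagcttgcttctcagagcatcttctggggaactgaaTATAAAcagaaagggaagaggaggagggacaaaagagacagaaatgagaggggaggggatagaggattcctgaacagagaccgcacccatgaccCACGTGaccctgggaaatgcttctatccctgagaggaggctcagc
CACNB4: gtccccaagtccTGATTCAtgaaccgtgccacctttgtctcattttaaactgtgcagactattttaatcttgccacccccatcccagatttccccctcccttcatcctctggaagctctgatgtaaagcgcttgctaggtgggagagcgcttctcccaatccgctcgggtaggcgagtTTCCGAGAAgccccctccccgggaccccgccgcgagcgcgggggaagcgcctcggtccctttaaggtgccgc
MEGF9: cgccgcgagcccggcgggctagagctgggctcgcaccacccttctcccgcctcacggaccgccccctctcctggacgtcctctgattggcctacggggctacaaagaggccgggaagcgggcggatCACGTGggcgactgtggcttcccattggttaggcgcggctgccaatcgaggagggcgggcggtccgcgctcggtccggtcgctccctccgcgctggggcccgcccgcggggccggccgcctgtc

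RefSeq gave a promoter for 45 of the 91 members, and the 300 bases from 250 before to 50 after the start were searched for 7 motifs. Both strands were searched, except for the TATA letters, which were searched on the gene's strand only. The E-box CACGTG was in 6 of 45 (13.3%, against 7.26% of 35116 promoters), among them CEACAM6, CBX5 and MEGF9. The AP-1 letters TGANTCA were in 4 (8.89% against 7.71%) and the GAS letters TTCNNNGAA in 3 (6.67% against 7.66%), and CACNB4 held both. The CRE letters TGACGTCA were in 1, TMTC4 (2.22% against 1.85%), and the TATA letters TATAAA in 1, CEACAM6 (2.22% against 7.33%). The interferon-stimulated response element was in 0 of 45 (3.57% of all promoters), and the full estrogen response element in 0 of 45 (0.0570% of all). None of the 7 patterns contains another. In FSIP1 none of the 7 occurred. The median content of G and C was 62.0% for the members and 58.7% over all promoters. A match describes letters in a window and shows no binding.

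**Figure D3:**
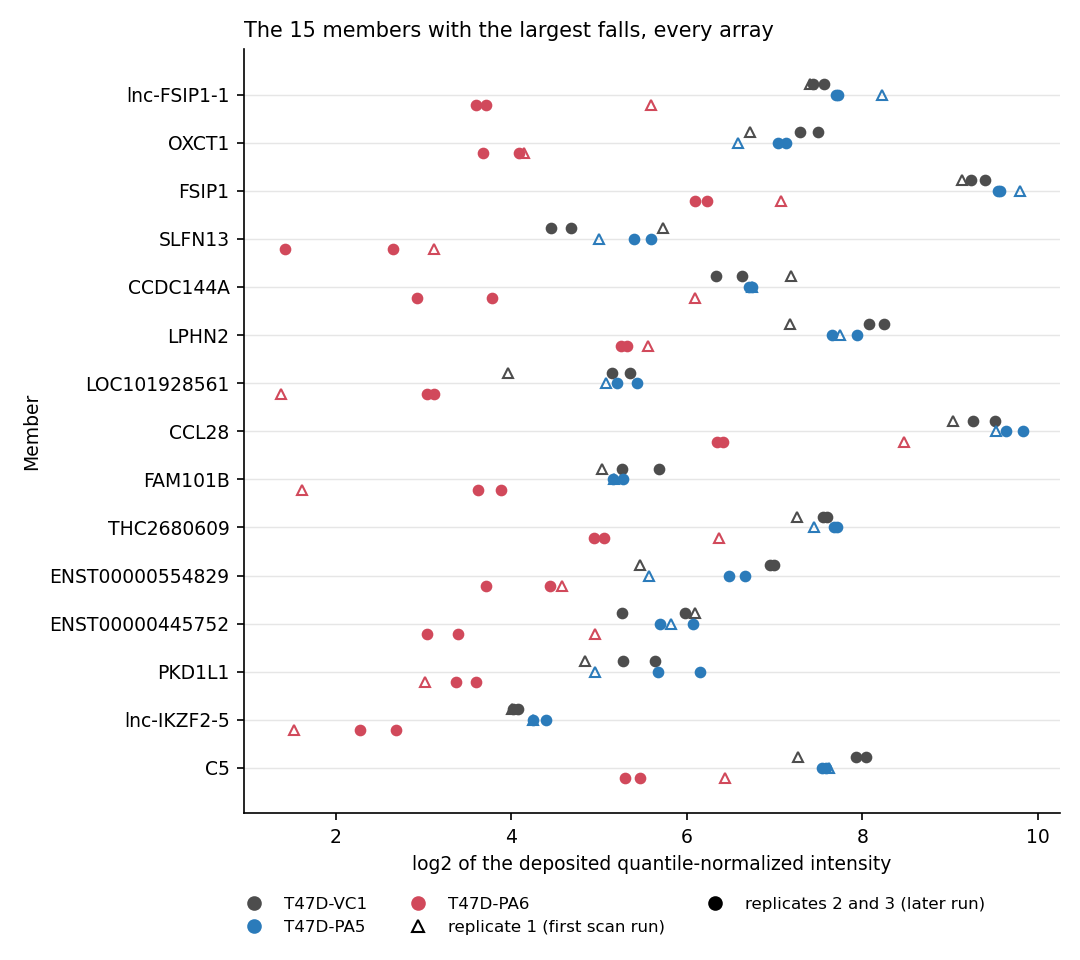
Log2 intensity on each of the 9 arrays for the 15 members with the largest differences, coloured by line. Triangles are replicate 1 of each line (first scan run) and circles replicates 2 and 3 (later run). For every member the T47D-PA6 points lie to the left, and for CCL28 and CCDC144A the T47D-PA6 triangle stands well to the right of the T47D-PA6 circles.

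Several members encode secreted signals or their receptors. CCL28, a chemokine of mucosal and mammary epithelium that attracts cells bearing CCR10 or CCR3, read 524, 731 and 614 in T47D-VC1, 737.5, 797 and 907.5 in T47D-PA5, and 356, 81.1 and 85.4 in T47D-PA6. All T47D-PA6 arrays were lower than the rest, but replicate 1 was much nearer to the other lines than replicates 2 and 3. The T47D-PA6 minus T47D-VC1 difference was -0.56 in the first scan run and -3.01 in the later one.

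C5, the complement protein split into an anaphylatoxin and the seed of the membrane attack complex, read 153, 262 and 243 in T47D-VC1, 197, 187 and 192 in T47D-PA5, and 86.7, 44.3 and 39.1 in T47D-PA6. All T47D-PA6 arrays lay below those of the other lines, and replicate 1 was again the highest of them. Its means differed by -2.01 and -1.85.

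CCR7, the receptor for CCL19 and CCL21 on lymphocytes and dendritic cells, read 109, 136 and 123 in T47D-VC1, 127.5, 132 and 159 in T47D-PA5, and 50.6, 44.5 and 48.5 in T47D-PA6. Here the T47D-PA6 arrays lay close together, whichever run they came from. TRH, the precursor of thyrotropin-releasing hormone, read 974, 886 and 757 in T47D-VC1, 666, 866 and 972 in T47D-PA5, and 412, 339 and 377 in T47D-PA6, where all arrays lay below the rest. IL9R, the interleukin 9 receptor, had 0 of 3 T47D-PA6 arrays well above background, and its signal was at least 3.28-fold higher in T47D-VC1 and at least 2.65-fold higher in T47D-PA5.

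The adhesion proteins CEACAM6 and CEACAM7, which are anchored to the surface of epithelial cells, are neighbours among the eligible genes of chromosome 19, with probes 97.3 kb apart. The probe of CEACAM5, which lies between them, was not eligible. CEACAM6 read 54.6, 138.5 and 125 in T47D-VC1, 83.6, 94.2 and 90.4 in T47D-PA5, and 31.5, 29.1 and 24.8 in T47D-PA6. CEACAM7 read 24.1, 38.1 and 42.1, then 31.2, 27.5 and 32.9, and in T47D-PA6 16.9, 13.9 and 11.2. In both genes T47D-VC1 replicate 1 was the lowest control array, and the T47D-PA6 arrays lay under it. The eligible genes on either side, PCAT19 and RPS19, had T47D-PA6 minus T47D-VC1 differences of 0.27 and 0.13. The CEACAM6 and CEACAM7 probes are unlike, with at most 17 of 60 bases alike in any ungapped alignment, and binding of other family members was not tested.

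Among receptors and signalling proteins, LPHN2 (now ADGRL2), an adhesion G protein-coupled receptor, read 144, 269.7 and 303 in T47D-VC1, 214, 244 and 202 in T47D-PA5, and 47.1, 39.7 and 38.0 in T47D-PA6. Its T47D-PA6 arrays were alike and far below the others, and another probe had differences of -1.91 and -1.83. LRRK2, a kinase and GTPase known from inherited Parkinson's disease, read 25.4, 46.8 and 59.7 in T47D-VC1, 34.3, 36.4 and 33.1 in T47D-PA5, and 5.66, 16.1 and 12.5 in T47D-PA6. Its T47D-PA6 replicate 1 was not above background. KCTD12, an auxiliary subunit of GABA-B receptors, had differences of -1.78 and -1.82, and -1.49 and -1.62 at another probe.

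Transport genes included a pair from the ATP-binding cassette family. ABCA12, the lipid transporter that builds the skin barrier, read 12071, 9881 and 9485 in T47D-VC1, 8804, 11689 and 11129 in T47D-PA5, and 8885, 3580 and 3446 in T47D-PA6. Only replicates 2 and 3 of T47D-PA6 were low, and replicate 1 lay within the T47D-PA5 range. ABCC11, the efflux pump of apocrine glands that sets earwax type, read 4090, 9060 and 9035 in T47D-VC1, 5846, 10004 and 9789 in T47D-PA5, and 6937, 2540 and 2321 in T47D-PA6. In the first scan run T47D-PA6 was the highest of the 3 lines, and in the later run it was far the lowest. ABCC11 was a member by a margin of 0.011 in its T47D-VC1 difference of -1.01.

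The transcript lnc-ABCC11-1, 2.1 kb from ABCC11 on chromosome 16, read 99.6, 214 and 233 in T47D-VC1, 101, 203 and 194.5 in T47D-PA5, and 93.4, 60.8 and 68.8 in T47D-PA6. Its T47D-PA6 replicate 1 lay just under the other arrays of the first run, and replicates 2 and 3 lay far under those of the later run. The neighbouring transporter ABCC12 had differences of -1.06 and -1.59 and missed membership because T47D-PA5 lay above T47D-VC1 by 0.53. LONP2, on the other side of ABCC11, was at 0.06 and -0.05.

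SLC1A1, a neuronal and epithelial glutamate and cysteine transporter, read 321, 428 and 392 in T47D-VC1, 424, 591 and 585 in T47D-PA5, and 158, 163 and 167 in T47D-PA6. The T47D-PA6 arrays were tight in both runs. SLC16A10, which carries aromatic amino acids, had differences of -1.14 and -1.46.

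Channel genes were GRIK4, CACNB4 and PKD1L1. GRIK4, a kainate-type glutamate receptor subunit, read 438, 389 and 389.6 in T47D-VC1, 293, 286 and 282 in T47D-PA5, and 172, 114 and 123 in T47D-PA6. The 3 lines formed 3 separate levels, and GRIK4 was a member by 0.002 log2 units of the limit between T47D-PA5 and T47D-VC1. CACNB4, a regulatory subunit of voltage-gated calcium channels, read 136, 140.1 and 133 in T47D-VC1, 91.7, 105 and 125 in T47D-PA5, and 44.8, 50.6 and 54.9 in T47D-PA6. PKD1L1, a polycystin that senses flow in cilia of the embryonic node, had differences of -1.93 and -2.27. GJD3, a connexin of gap junctions, had -1.06 and -1.02.

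Enzymes were a further group. ST6GALNAC2, which adds sialic acid to mucin-type O-glycans, read 2290, 2301 and 2229 in T47D-VC1, 2280, 2162 and 2159 in T47D-PA5, and 1521, 806 and 814 in T47D-PA6. The control arrays lay within a narrow band and every T47D-PA6 array was under it. GNMT, which uses S-adenosylmethionine to methylate glycine, read 420, 279 and 256 in T47D-VC1, 404, 326 and 314 in T47D-PA5, and 399.9, 55.3 and 43.7 in T47D-PA6. Its T47D-PA6 replicate 1 lay beside the other arrays of the same run, with a difference of -0.07, against -2.44 in the later run. ACPP (now ACP3), the prostatic acid phosphatase, had differences of -1.49 and -1.84. AK7, an adenylate kinase of motile cilia, had -1.54 and -1.15.

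Regulators of transcription and chromatin were also among the members. NR2F1, an orphan nuclear receptor, read 309.9, 158 and 194 in T47D-VC1, 182, 207 and 221 in T47D-PA5, and 181, 39.2 and 42.7 in T47D-PA6. As in GNMT, replicate 1 of T47D-PA6 lay inside the range of the other lines. HOXB8, a homeobox factor of body patterning, read 78.8, 35.3 and 26.9 in T47D-VC1, 44.6, 44.5 and 47.3 in T47D-PA5, and 27.3, 4.80 and 13.2 in T47D-PA6, so 1 T47D-PA6 array lay just above the lowest control array. CBX5, the heterochromatin protein HP1 alpha, read 4156, 5322 and 5165 in T47D-VC1, 4915, 4715 and 4554 in T47D-PA5, and 2783, 1914 and 2185 in T47D-PA6. All CBX5 control arrays stayed above all T47D-PA6 arrays, while another CBX5 probe had smaller differences of -0.48 and -0.34. The homeobox factors LHX8 and MKX had T47D-PA6 minus T47D-VC1 differences of -1.54 and -1.38, that of LHX8 with 1 of 3 T47D-PA6 arrays above background. SMC5, a subunit of a DNA repair complex, was at least 2.69-fold higher in T47D-VC1 than in T47D-PA6.

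**Figure D4:**
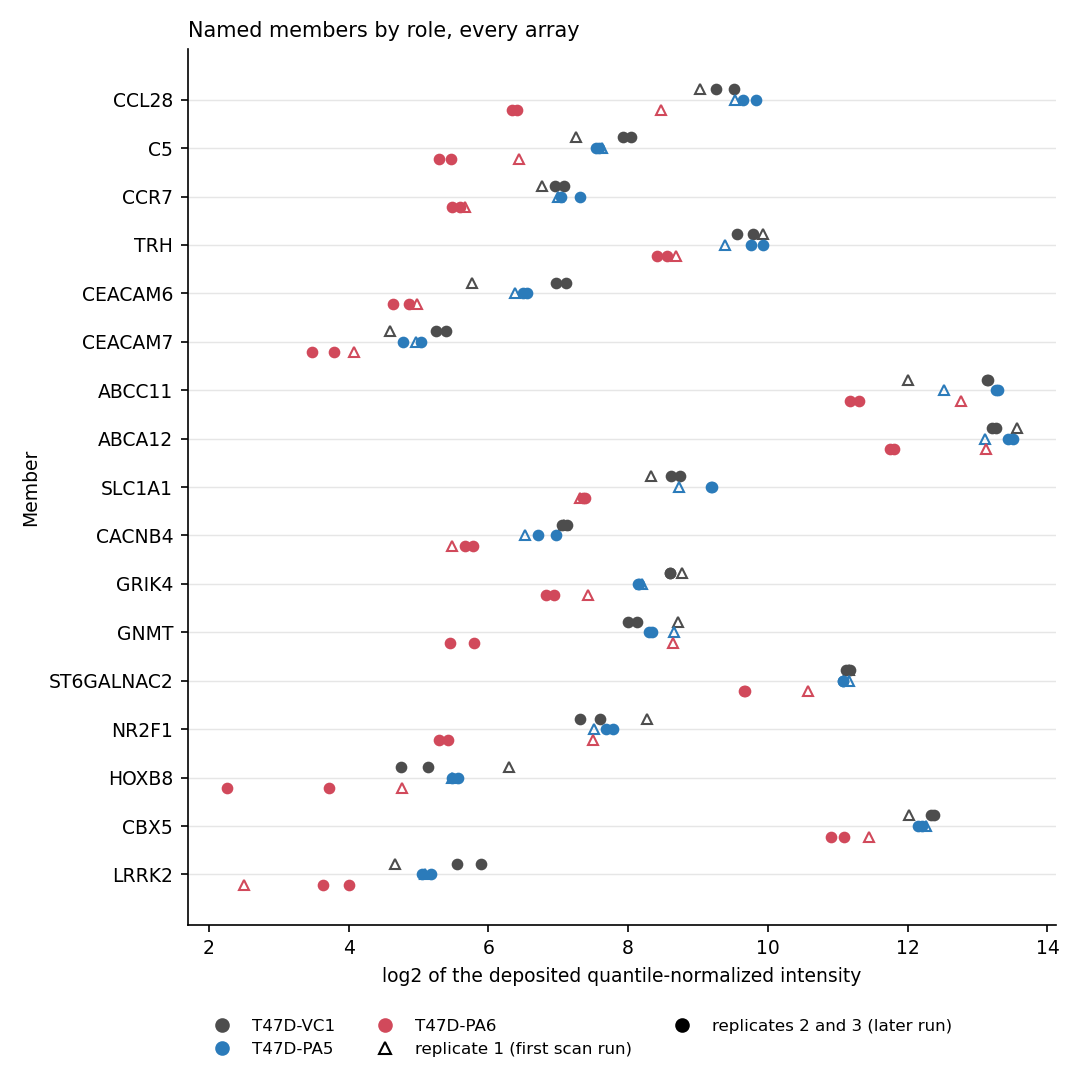
Log2 intensity on each of the 9 arrays for named members ordered by role, from secreted proteins and receptors at the top to regulators and signalling proteins at the bottom. Triangles are replicate 1 and circles replicates 2 and 3. The T47D-PA6 triangles of ABCC11, ABCA12, GNMT and NR2F1 lie among the points of the other lines, whereas those of CCR7, TRH, SLC1A1 and CACNB4 lie beside the T47D-PA6 circles.

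Other members among the 15 are less well known. The 15 were ranked by the differences in the deposited table, and for SLFN13, LOC101928561 and lnc-IKZF2-5, with 0 of 3 T47D-PA6 arrays above background, only a bound holds and the rank is uncertain. SLFN13, a schlafen family RNase, had a T47D-VC1 signal at least 2.66-fold higher than that of T47D-PA6, and LOC101928561 one at least 2.42-fold higher. CCDC144A, a coiled-coil gene of chromosome 17, read 146, 80.5 and 98.6 in T47D-VC1, 106.9, 106.9 and 105 in T47D-PA5, and 68.0, 13.7 and 7.60 in T47D-PA6. The transcript ENST00000445752, from the related pseudogene CCDC144B, had a lower T47D-PA6 signal too, with differences of -1.98 and -2.07, of uncertain size because 1 of 3 T47D-PA6 arrays was above background. At most 23 of 60 bases of these 2 probes are alike in an ungapped alignment, and whether either probe also binds transcripts of the other copy was not tested. FAM101B (now RFLNB), an actin regulator, read 32.7, 51.3 and 38.4 in T47D-VC1, 36.0, 35.7 and 38.7 in T47D-PA5, and 3.07, 12.3 and 14.7 in T47D-PA6. Its T47D-PA6 replicate 1 was not above background. The remaining 3 are unnamed: THC2680609 and ENST00000554829, with T47D-PA6 minus T47D-VC1 differences of -2.02 and -2.23, and lnc-IKZF2-5, for which T47D-VC1 was at least 1.40-fold higher.

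The scan runs were compared within each run, because replicate 1 stood apart in several genes. T47D-PA6 replicate 1 also had more spots flagged as outliers, 117 against 46 to 68 on the other arrays. All spots were flagged for 59 of its probes, against 0 to 2 probes on the others, and 0 members had a flagged spot. In the first run, with 1 array per line, the members' T47D-PA6 minus T47D-VC1 difference had a median of -1.19, and in the later run -1.57. Against T47D-PA5 the medians were -1.05 and -1.62. Both differences were below 0 in both runs for 87 of 91 members, and -1 or lower in both runs for 32. Both were -1 or lower in the first run for 39 and in the later run for 82. Since 2 of the 3 arrays averaged per line came from the later run, the choice of members favours genes that were lower there. The 4 members without this sign in both runs were ABCC11, ABCA12, AK7 and EFCC1, whose T47D-PA6 minus T47D-PA5 differences in the first run were 0.25, 0.01, 0.39 and 0.93.

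**Figure D5:**
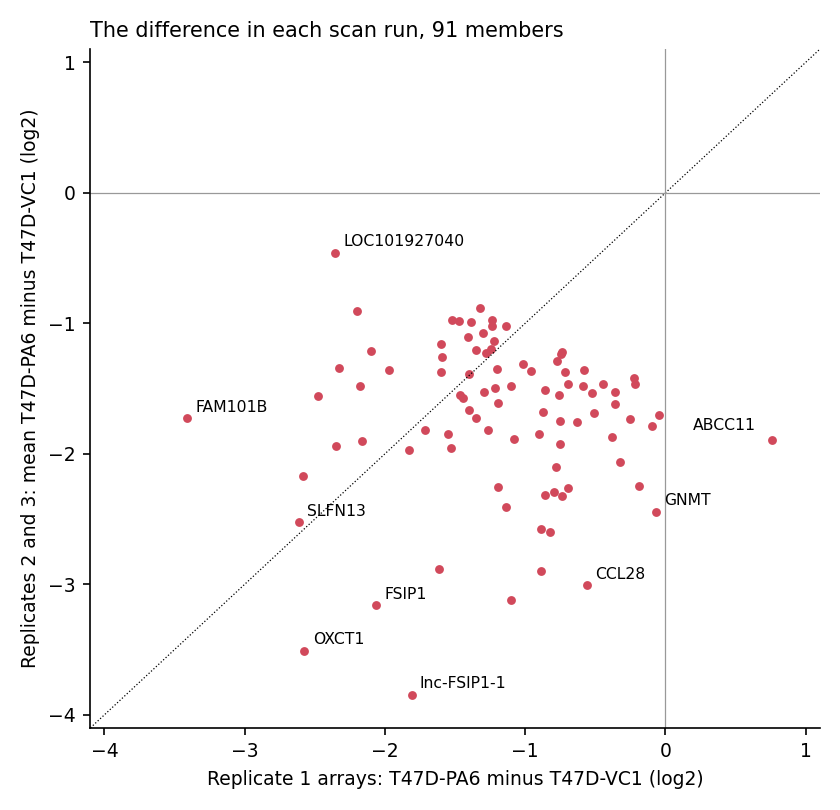
T47D-PA6 minus T47D-VC1 difference in log2 intensity for the 91 members in the first scan run (replicate 1 of each line, horizontal) and in the later run (mean of replicates 2 and 3, vertical), with the line of equal differences dotted. ABCC11 lies to the right of 0 on the horizontal axis, GNMT and CCL28 lie low near its 0, and FAM101B lies far to the left, through a T47D-PA6 value that was not above background.

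The contrast of replicates 2 and 3 against replicate 1, averaged over all lines, is not among the differences of the rule, though it uses the same arrays. In it, 11 of 91 members passed at a limma adjusted p of 0.05, or 12.1%, against 14.0% of all genes. No result about the members is read from this share. With 1 array left out, the members' share was above that of all genes in 8 of 9 cases, for example 12.1% against 7.12% without T47D-PA6 replicate 1, and this was not tested. An average over lines does not show a difference between runs in T47D-PA6 alone. Of the 11 members, the 6 higher ones lay between 0.68 and 1.08, and the named genes among them were PKD1L1, ACOT6, FAM3D and FAM184B. The 5 lower ones, between -1.42 and -0.73, were unnamed transcripts. The median was -0.06 for the members and 0.02 for all genes. With no filter on dim probes 4 members passed (4.40%, against 3.26% of all genes), and with detection on all 9 arrays 7 of 58 tested (12.1% against 17.3%). The 58 are the 57 members detected on all arrays and KCTD12, read there from its other probe.

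On the chromosomes, members were 0.49% of eligible genes with a position. The eligible genes here include those that the rule bars by name or position, among them the barred stretches of chromosomes 1 and 9. Chromosome 17 held 14 of 1176, chromosome 16 held 9 of 920 and chromosome 13 held 5 of 328, while chromosomes 21 and 22 held 0. The median T47D-PA6 minus T47D-VC1 difference of all eligible genes was -0.25 on chromosome 13, -0.21 on chromosome 9 and -0.14 on chromosome 17. For each member the median over the nearest eligible non-members, 5 on each side, was also taken (5 in all for DEFB126 and for IL9R, near a chromosome end). These medians ran from -0.48 to 0.29 and had a median of -0.16. The rule itself sets the members apart from these neighbours, and nothing is read from that gap. The lowest, -0.48, were around ABCA12 and lnc-IKZF2-5 on chromosome 2, followed by -0.45 around ENST00000422957 on chromosome 17 and -0.41 around C5 and MEGF9 on chromosome 9 and KCTD12 and RGCC on chromosome 13. Besides the pairs already described, ST6GALNAC2 and lnc-METTL23-2 were neighbours on chromosome 17, 107.9 kb apart, in a stretch whose genes MXRA7 and SNHG16 had -0.52 and -0.49.

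Further probes of the members read the same contrasts on the same arrays, so their values are a description. For 9 members with 10 further probes well above background in the control lines, both differences were below 0 at all 10 probes, -0.5 or lower at 9 and -1 or lower at 5. The 5 belong to CCDC144A, LPHN2, KCTD12 and GRIK4. A probe passes that filter through the lines where the members are high. Of the 19 further probes that did not pass it, 12 had both differences below 0 and 5 had both above 0, at signals too dim for the signs to be read.

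Of 26 gene lists written out for this comparison, 5 held 1 member each and 21 held none. Against T47D-VC1, 4.65% of all genes tested were higher and 5.39% lower, against T47D-PA5 3.62% and 6.12%, and each list's count includes its member where that passed. The list of cilium and sperm fibrous sheath genes, with FSIP1, had 3 of 34 tested genes lower than the vector control (8.82%) and 0 higher. Its median was -0.11 against -0.04 over all genes. Compared with T47D-PA5, 2 of the 34 were lower (5.88%, against 6.12% of all genes) and 0 higher, with a median of -0.02. On it DNAH11, a dynein heavy chain of motile cilia, fell by 0.63 log2 units (standard error 0.12, limma adjusted p = 0.019) and lay below all T47D-VC1 arrays on 3 of 3 arrays. The list of voltage-gated calcium and sodium channels and TRP channels, with CACNB4, had 2 of 20 lower than in T47D-VC1 and 1 higher. Its median was 0.03. Compared with T47D-PA5 the list had 2 lower and 0 higher, with a median of 0.12. Its pore-forming subunit gene CACNA1D fell by 1.09 from T47D-VC1 (limma adjusted p = 0.011, standard error 0.19). From T47D-PA5 it fell by 0.91 (limma adjusted p = 0.022), and in both comparisons 3 of 3 arrays lay below.

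The androgen-induced list, with ACPP, had 2 of 17 genes higher than in T47D-VC1 (11.8%) and 0 lower, with a median of 0.23, and 2 higher and 2 lower than in T47D-PA5 (11.8% each), with a median of 0.22. PMEPA1, an inhibitor of TGF-beta signalling, had a mean intensity of 486 in the vector control, against 1045 for T47D-PA5 and 1573 for T47D-PA6. Against T47D-VC1 it was higher by 1.69 (standard error 0.36, limma adjusted p = 0.023) on 3 of 3 arrays. The HOX list, with HOXB8, had 1 of 23 higher than in T47D-VC1 (4.35%) and 0 lower, with a median of 0.17. The called gene was HOXA9 at 0.55 (standard error 0.10, limma adjusted p = 0.016). Compared with T47D-PA5, 0 of the 23 passed, and the median was 0.05. The list of mucins and O-glycan enzymes, with ST6GALNAC2, had 1 of 23 lower than in T47D-VC1 (4.35%) and 0 higher, with a median of 0.06. The lowest adjusted p beside its member was that of GALNT6, which starts O-glycans, with a difference of -0.40 and a limma adjusted p of 0.085. Against T47D-PA5 the list had 1 higher (4.35%) and 2 lower (8.70%), the higher one being the core 1 enzyme gene C1GALT1, by 0.81 (limma adjusted p = 0.016).

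Gene families were searched by name pattern. Of 22 patterns, that for adhesion G protein-coupled receptors matched 0 genes tested, because the array uses older names such as LPHN2, which is therefore not counted. Of the other 21, 4 held members. Solute carriers had 14 of 253 tested genes higher (5.53%) and 15 lower (5.93%) against T47D-VC1, near the shares of all genes, with 2 members. ATP-binding cassette transporters had 2 of 36 higher and 2 lower (5.56% each), with 2 members, ABCA12 and ABCC11, on it. Coiled-coil genes named CCDC had 3 of 108 higher (2.78%) and 5 lower (4.63%). Transcripts labelled only by locus or accession had 158 of 5005 higher (3.16%) and 281 lower (5.61%, near that of all genes), with a median of -0.05. The pattern matched 34 members, AK7 among them only through the letters of its name. Against T47D-PA5, these transcripts had 128 higher (2.56%) and 243 lower (4.86%), and solute carriers 15 higher and 15 lower (5.93% each). All genes had 3.62% higher and 6.12% lower there.

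At the edge of the rule, the members nearest a limit were SPTBN5, a spectrin, with a T47D-PA6 minus T47D-PA5 difference of -1.002, GRIK4 with a T47D-PA5 minus T47D-VC1 difference of -0.498, and ABCC11. The nearest genes outside were ENST00000582866, lnc-IKZF2-2 and PTGER4P2-CDK2AP2P2, whose T47D-PA6 minus T47D-PA5 differences were -0.994, -0.990 and -0.987.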

How the data were processed

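Total RNA of 3 T47D lines was labelled with Cy3 and hybridized to 9 Agilent 60-base arrays, 3 per line. The authors deposited scanner files with background-corrected signal intensity per spot, and a table of quantile-normalized linear intensity per probe. The files name Feature Extraction 10.7.1.1, the submitters' notes 9.5.1.1. Positions of probes are those of the files (hg19). The members and lists were chosen with earlier results of these data known.

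Line differences were taken from the deposited table after log2, with 1 probe per gene name. For tests, log2 processed signal from the scanner files was quantile-normalized and fitted with limma 3.58.1 in R 4.3.3 over all 9 arrays, on the 20098 genes detected (well above background) on all arrays of some line, two-sided, with Benjamini-Hochberg adjustment at 0.05. Spots flagged as outliers were dropped from a probe's mean, unless all its spots on an array were flagged, when their mean was kept. This held for 59 probes on T47D-PA6 replicate 1 and for 0 to 2 on each other array. Among the members, 0 had a flagged spot. The fit was also applied to simulated data with independent noise on each array, unlike the correlated replicate 1 arrays, and nothing is read from it. Python 3.11.15 with pandas 2.3.3 and matplotlib 3.10.9 did the rest. Alternatives were 75th percentile scaling, another background correction, other filters and probe choices, a slide or replicate block, an unpaired test and each array left out.

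Genes named by rule were the 15 members with the largest differences (by the smaller in size of the pair), the 5 with the highest T47D-VC1 level among the rest (1 of them unnamed and not printed), members on a written list or in a neighbouring pair, those nearest the limits, and the list genes with the lowest adjusted p. All other genes named were chosen after their values were seen, for their role, position or spread.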

Additional observations from a re-analysis of the deposited data

Results flagged for a closer look

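ABCC11 had T47D-PA6 above both other lines in the first scan run and below both in the later run. Its T47D-PA6 minus T47D-VC1 difference in log2 intensity was 0.76 in the first run and -1.90 in the later run. Against T47D-PA5 it was 0.25 in the first run and -2.03 in the later run. The first run holds 1 array per line, and the difference between the runs was not tested for this gene, because arrays of both runs had chosen it.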

How the results depend on the processing

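Applied to intensities quantile-normalized again from the scanner files, the rule gave 91 genes, all of them the members, and with 75th percentile scaling 79, of which 77 were members. The background correction with normexp left 15, the requirement of detection on all 9 arrays 57, limits of -0.8 gave 193 and limits of -1.2 gave 52. Replicate 1 of each line alone gave 114 genes, 27 of them members, and replicates 2 and 3 alone 129, with 74 members. Leaving out 1 array at a time gave 87 to 142 genes, with 142 when T47D-PA6 replicate 1 was left out. The causes of these shifts were not tested, beyond that stricter limits and detection must pass fewer genes.

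For the members named, 122 differences were recomputed. With replicate 1 alone 5 changed sign: AK7 against T47D-PA5 (0.39), ABCA12 against T47D-PA5 (0.01), EFCC1 against T47D-PA5 (0.93) and ABCC11 against both (0.76 and 0.25). With normexp 121 of 122 came nearer to 0 and 0 changed sign. Under all other settings tried, leaving out single arrays included, 0 changed sign.

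The counts of genes passing in T47D-PA6 against T47D-VC1 (2018), T47D-PA6 against T47D-PA5 (1958), T47D-PA5 against T47D-VC1 (336) and later against first replicates (2808) were 1294, 1262, 199 and 1413 with no filter on dim probes. An unpaired Student test gave 405, 789 and 39 for the line comparisons, and a slide block gave 601 for T47D-PA5 against T47D-VC1. Leaving out 1 array gave 705 to 2762, 729 to 2934, 98 to 619 and 1066 to 4179, a group left with fewer arrays being assumed to vary like the others. The balance of directions moved too. Against T47D-VC1, 934 genes were higher and 1084 lower with all arrays. Without T47D-PA6 replicate 3 these counts were 393 and 312, and without T47D-PA6 replicate 1 they were 1270 and 1492. Of the members, 11 passed between replicates, 4 with no filter on dim probes, 7 with detection on all 9 arrays and 7 to 19 with 1 array left out. Of 243 list counts under other settings, 172 were within 1.5 times the count given.

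Replicate numbers were not taken to pair the arrays, since the lowest correlation between same-numbered arrays of different lines, after removing line means, was 0.099, below 0.1. The replicate 1 arrays, which share slide 1 and the first scan run, did correlate with each other (0.209, 0.333 and 0.269), whereas replicates 2 and 3 did not all correlate best with their own number. With the replicate block the line comparisons gave 2632, 2393 and 490 genes. Signal over background limits the dim members: 57 of 91 were well above it on all T47D-PA6 arrays.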
